A study of Cicer arietinum with 8 samples.

Results

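Roots of 2 chickpea (Cicer arietinum) genotypes, ICCV2 (salinity sensitive, SS) and JG62 (salinity tolerant, ST), were compared after the same salt treatment. Plants 12 days old were given 80 mM NaCl on alternate days over 6 days, and controls of both genotypes were watered without salt. Roots of all 4 groups were harvested at 18 days of age, with 2 RNA-seq libraries in each group. The deposited table gives 1 FPKM value per locus and group, in which the authors combined both libraries. FPKM counts sequenced fragments relative to transcript length and to all fragments mapped, which allows for genes of different length and libraries of different depth. The columns of the groups can still differ in scale, so the main counts are also given below after 2 scalings. The columns are named SS-C and ST-C for the controls and SS-S and ST-S for salt. The comparison described here is ST-S against SS-S, and it takes in every locus that reached FPKM 1 in either column. This rule took 20214 of the 30692 loci in the table, and 10478 loci lay below the minimum in both columns. Just inside it were Ca_26699, with FPKM 1.001 in SS-S and 0.522 in ST-S, and Ca_21938, with 1.003 and 0.984. Just outside it were Ca_03692, with 0.979 and 0.99996, and Ca_14330, with 0.738 and 0.999.

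Salt reaches a plant first at the root. It lowers the water potential of the soil solution and brings sodium and chloride into the tissue, and roots are known to answer with ion transporters, compatible solutes such as inositol derivatives, stress hormones and transcription factors of the WRKY and bHLH families. Genotypes of a crop can differ in such genes before any salt is given, or only once salt is present. The comparison of both genotypes under salt holds both kinds of difference, so each locus was also looked up in the control columns. With the libraries pooled, no difference below has a replicate check, a standard deviation or a test, the depth of the libraries is not given in the sources used here, and each value is a description of these pooled libraries. Fewer cells of a type and less RNA per cell cannot be told apart in such bulk samples. The labels give root as the source, but the gene names (Ca_ followed by a number) carry no description, so the tissue was not checked against marker genes.

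Under salt more loci were higher in the ST genotype than in the SS genotype. A gap was counted where the FPKM ratio of the genotypes was at least 1.5 either way, the fold used in the study, and the higher column reached FPKM 1. A locus listed at 0 in the other column counted as a gap without a fold. Of the 20214 loci, 3562 (17.6%) had a gap, 2229 (11.0%) with ST higher and 1333 (6.59%) with SS higher, so that ST was the higher genotype in 62.6% of the gaps. In the controls the gaps were split evenly. There 3320 of 20225 loci (16.4%) had a gap, 1663 (8.22%) with ST higher and 1657 (8.19%) with SS higher. When the columns were scaled by their median ratio, the ST share was 57.3% under salt and 51.2% in the controls. With upper-quartile scaling it was 58.7% and 52.4%, so the contrast between salt and control was smaller under both scalings.

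Most gaps were modest in size. Under salt 1870 gaps lay between 1.5-fold and 2-fold, 1165 between 2-fold and 4-fold, 246 between 4-fold and 8-fold and 93 at 8-fold or more. In a further 188 gaps the lower genotype was listed at 0. For the 18918 loci that reached FPKM 1 in all 4 columns, the log2 ratio of ST to SS had a median of 0.04 under salt, with quartiles at -0.14 and 0.24. Without salt the median was -0.01, with quartiles at -0.19 and 0.18. The 2 ratios of a locus share no library, and across these loci they had a Pearson r of 0.48 and a Spearman rho of 0.43. Loci are not independent replicates, so these coefficients describe the table only. A Ca_ name is given below where a locus has one, and values in a row of 4 are in the order SS-C, SS-S, ST-C and ST-S.

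Each gap was then classed by its state in the controls. Of the salt gaps, 1422 (39.9%) were kept, that is, present with the same direction without salt. Another 1892 (53.1%) were new, with no gap in the controls, and 248 (6.96%) were turned, with a gap of the opposite direction in the controls. Conversely, 1650 of the control gaps (49.7%) were lost under salt. New gaps had ST higher at 1272 loci and SS higher at 620. This excess toward ST was smaller after scaling, with 1114 against 751 by median ratio and 1141 against 714 by upper quartile. Lost gaps had leaned slightly the other way, with SS higher without salt at 906 and ST higher at 744. Kept gaps leaned toward ST, with 814 against 608, and so did turned gaps, with 143 against 105. The surplus of ST-higher loci under salt thus held new, kept and turned gaps, and lost gaps are no part of it. Kept gaps have the same direction in both conditions, so their lean was also present without salt.

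Many new gaps were already slight differences without salt. In the controls 666 of the 1892 new gaps had a ratio of 1.2-fold to 1.5-fold in the same direction, 205 had such a ratio in the other direction, and 216 had FPKM under 1 in both columns. The remaining 805 were even, with less than 1.2-fold between the controls. A new gap was called clear where the genotypes were even without salt and at least 2-fold apart under salt. There were 192 clear new gaps, 140 with ST higher and 52 with SS higher. By the same rule 191 lost gaps were clear, 79 with ST higher and 112 with SS higher in the controls.

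The share of gaps that were kept differed with their size. It was 29.1% for gaps of 1.5-fold to 2-fold under salt, 47.6% for 2-fold to 4-fold, 67.5% for 4-fold to 8-fold and 74.2% for 8-fold or more. Among the gaps with a genotype listed at 0, 46.8% were kept. Wide gaps with a value above 0 in both genotypes were therefore mostly present without salt, whereas the narrow ones were mostly new. In part this follows from the rule, since a narrow gap crosses the 1.5-fold cut with a smaller change than a wide one.

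**Figure D1:**
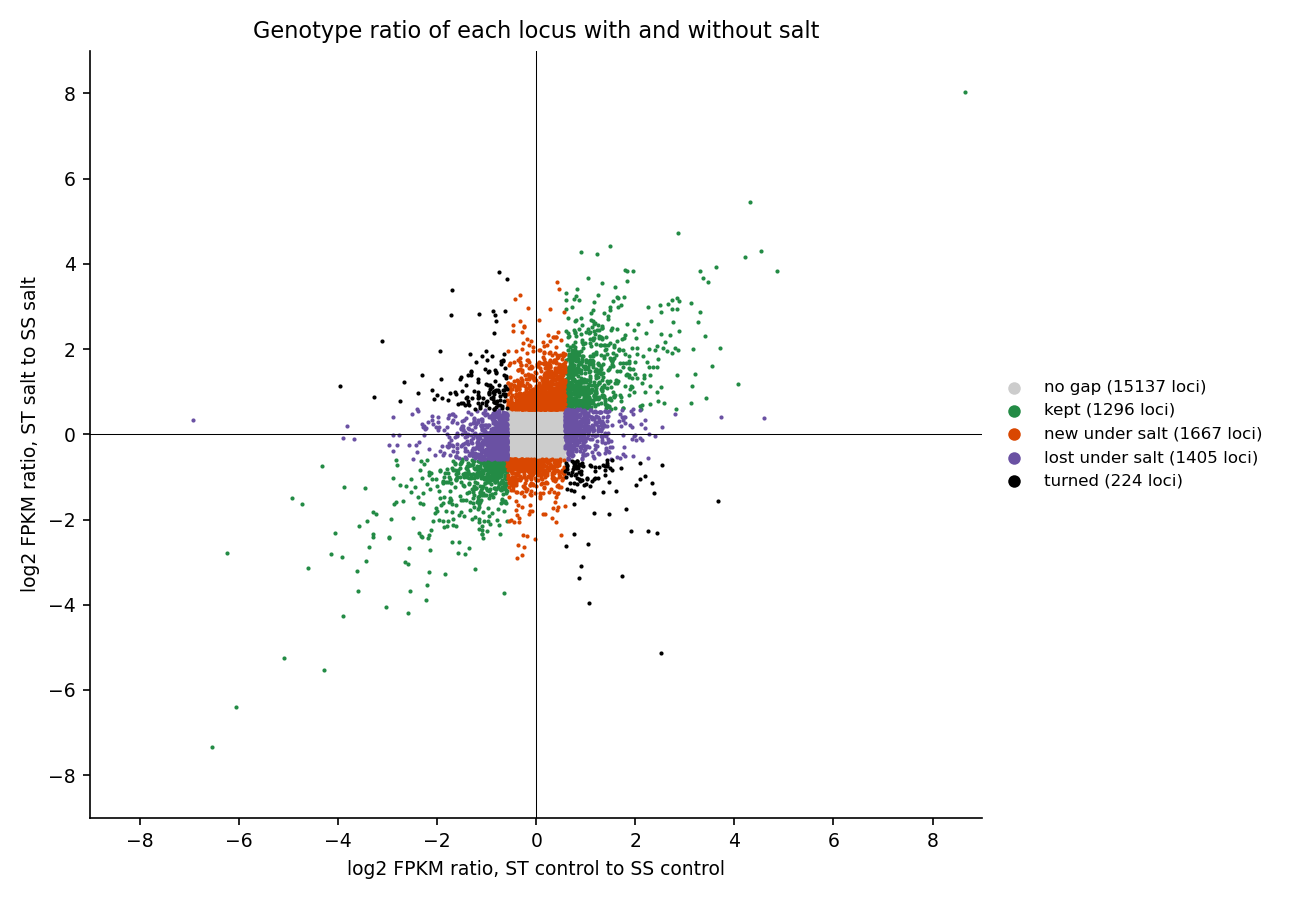
Each point is a locus, with the log2 FPKM ratio of ST control to SS control on the horizontal axis and of ST salt to SS salt on the vertical axis, for the 19729 loci that were above 0 in every column and reached FPKM 1 in each condition (1 locus lies outside the drawn range). Colours give the class of the gap, and the 1667 plotted new gaps form the bands above and below the centre, denser above it.

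Which genotype moved was read from the change of each column between control and salt. By arithmetic the change of a gap is the difference of these 2 changes, so the counts are a description. A column counted as moved only where its genotype also reached FPKM 1 in control or salt. Changes that stayed below FPKM 1 are thus counted as not moved. Among the 140 clear new gaps with ST higher, only the ST column moved by at least 1.5-fold toward the gap at 56 loci, only the SS column at 59 and both at 14. At the remaining 11 neither did. Of the 52 clear new gaps with SS higher, the ST column alone had gone down by at least 1.5-fold at 36 loci, the SS column alone had gone up at 12, and both had moved at 2. Over all 1272 new gaps with ST higher, the ST column alone had moved at 415, the SS column alone at 255, both at 55 and neither at 547. Over all 620 with SS higher the columns were nearly even, with the ST column alone at 176, the SS column alone at 163, both at 14 and neither at 267.

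The surplus of ST-higher gaps under salt extended to the most abundant transcripts. Among loci that reached FPKM 200 in either salt column, 161 of 1289 (12.5%) were higher in ST and 44 (3.41%) were higher in SS. Without salt the shares at this level were 4.48% and 5.37% of 1228 loci. From FPKM 10 to 50 under salt, the shares were 6.82% with ST higher and 4.53% with SS higher. At FPKM of 1 to 2, where few fragments stand behind a value, 26.6% of the loci had a gap toward ST and 14.9% a gap toward SS. The median log2 ratio of the loci at FPKM 200 or more was -0.02, so the loci higher in ST formed a tail and the middle of the distribution was not shifted. The count at this level was 153 with ST higher and 53 with SS higher after median-ratio scaling.

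**Figure D2:**
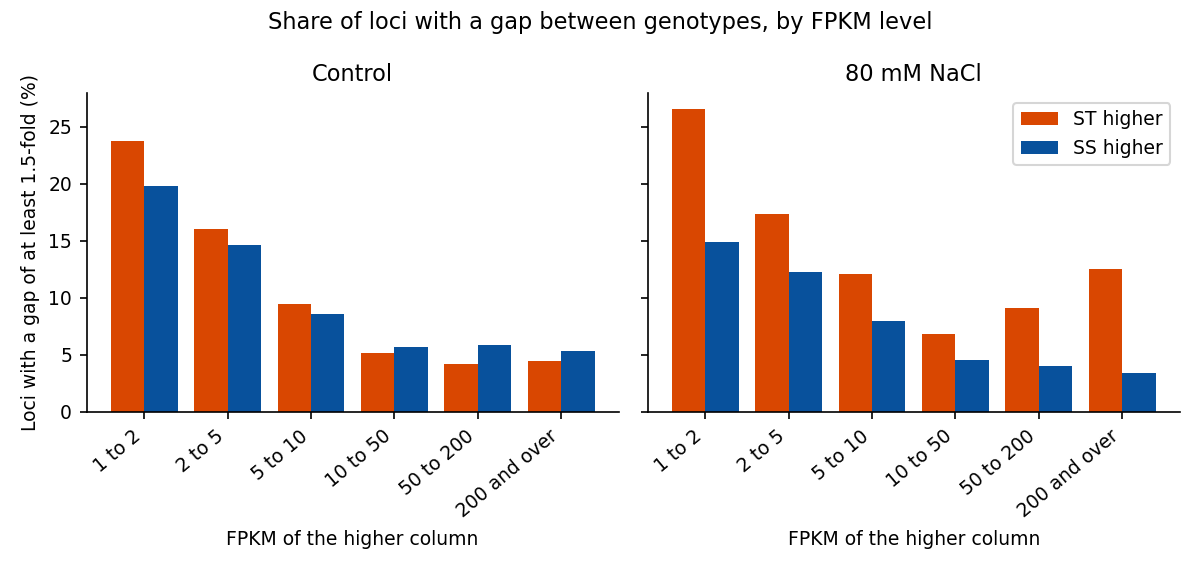
Bars give the percentage of loci with a gap of at least 1.5-fold between the genotypes, by the FPKM of the higher column, in control roots (left) and after 80 mM NaCl (right). At FPKM 200 and over, ST-higher gaps took 4.48% of the loci in the controls and 12.5% under salt, and SS-higher gaps 5.37% and 3.41%.

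Of these abundant loci, 105 had a new gap with ST higher, against 21 with SS higher. The 105 had a median ratio of 1.98 under salt, and for 90 of them ST was already above SS in the controls by less than 1.5-fold. Their ST columns stood at a median of 1.48 times the control level under salt and their SS columns at 0.879 times. Only the ST column moved by at least 1.5-fold toward the gap at 48, only the SS column at 4, both at 4 and neither at 49. The widest of the 105 with a single gene name were Ca_09850, Ca_11381, Ca_10320 and Ca_03171, which were picked once the values were known. Ca_09850 had FPKM 59.8 in SS-C, 52.6 in SS-S, 66.4 in ST-C and 201 in ST-S. Ca_11381 had 137, 127, 164 and 481 in the same order. For Ca_10320 the values were 244, 167, 305 and 609, and for Ca_03171 they were 241, 180, 349 and 644. In all 4 genes the ST-S value stood above the other 3 columns, and the SS-S value was the lowest. The 21 abundant new gaps toward SS had a median ratio of 1.62. At 16 of the 21 neither column had moved by 1.5-fold, and at 16 SS was already above ST in the controls. Ca_18084, picked in the same way, had 98.1 in SS-C, 247 in SS-S, 114 in ST-C and 112 in ST-S, so only SS-S stood apart. Ca_04293 had 217, 313, 153 and 150. Ca_03101, with 258, 258, 188 and 129, differed from these in that the ST column was lower under salt and the SS column was level.

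Among the 100 loci with the largest mean of the 2 salt columns, 11 had a gap and all 11 had ST higher. Of these, 7 were new and 4 were kept. In the controls 6 of the 100 had been higher in ST and 8 higher in SS. The widest gap in the 11 was at Ca_21892, with FPKM 1746 in SS-C, 1709 in SS-S, 2789 in ST-C and 4915 in ST-S. Ca_05270 was next, with 1190, 1001, 1691 and 2819, and its controls were less than 1.5-fold apart. Ca_24014 and Ca_24258 were narrower, with ratios of 2.47 and 2.35 under salt. Ca_24014 had 1239, 1203, 1614 and 2976, and Ca_24258 had 1519, 1417, 2266 and 3329. Both were new, and in both the SS column differed little between control and salt. The kept gap at Ca_21102 was of another kind, with 1132, 1168, 2279 and 2314, so that neither genotype differed much between control and salt.

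The largest differences in FPKM itself were at the top of the table, where a small ratio is a large number of fragments. Toward ST they were at Ca_05165, at XLOC_019945, which has no gene name, and at Ca_13561. Ca_05165 was the most abundant locus, with FPKM 27648 in SS-S and 33732 in ST-S, and it had no gap at a ratio of 1.22. XLOC_019945 had 4523 in SS-C, 3369 in SS-S, 4075 in ST-C and 8826 in ST-S. It was a new gap of 2.62-fold from nearly equal controls. Ca_13561 had 2563, 2247, 3732 and 5870, a new gap of 2.61-fold. Toward SS the largest differences were at Ca_15740, with FPKM 18829 in SS-S and 14992 in ST-S, Ca_19617, with 8336 and 5953, and Ca_15742, with 6460 and 4609. None of these 3 reached 1.5-fold.

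The widest new gaps toward ST among loci with a single gene name were at low or moderate FPKM. Ca_09671 had FPKM 0.0562 in SS-C, 0.268 in SS-S, 0.513 in ST-C and 22.4 in ST-S, a ratio of 83.5 under salt. Its controls also differed, but both lay under the minimum. Ca_01052 had 1.61, 2.17, 2.2 and 23.0 in the same order, and Ca_06932 had 15.1, 6.16, 18.3 and 47.2. In Ca_01052 only ST-S stood apart, whereas in Ca_06932 the SS column was lower and the ST column higher under salt. Ca_14005 and Ca_23802 were listed at 0 in the other 3 columns and had 11.7 and 6.75 in ST-S. Ca_05003 had 7.84 in SS-C, 6.36 in ST-C and 9.04 in ST-S and was listed at 0 in SS-S alone. The 2 widest new gaps without a gene name were XLOC_027976, listed at 0 except for FPKM 18.0 in ST-S, and XLOC_008890, at 5.85 in ST-S, 0.265 in ST-C and a listed 0 in both SS columns.

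Of the widest new gaps toward SS with a single gene name, all but 1 had a salt value listed at 0 in ST. Ca_12549 and Ca_13024 were listed at 0 in the other 3 columns and had FPKM 6.99 and 3.69 in SS-S. Ca_04486 had 0.322 in SS-C and 2.94 in SS-S and was listed at 0 in both ST columns. Ca_13581 and Ca_24651 had values in 3 columns and a listed 0 in ST-S. They stood at 2.96 and 5.81 in SS-C, 4.91 and 3.63 in SS-S and 3.60 and 5.91 in ST-C. Only Ca_03911 had a value above 0 throughout, with 2.81 in SS-C, 11.9 in SS-S, 2.77 in ST-C and 2.18 in ST-S. Its gap of 5.45-fold came from a higher SS column on even controls. Without a gene name, XLOC_020082 was listed at 0 except for 9.86 in SS-S, and XLOC_003516 had 0.727 in SS-C, 6.47 in SS-S and a listed 0 in both ST columns.

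**Figure D3:**
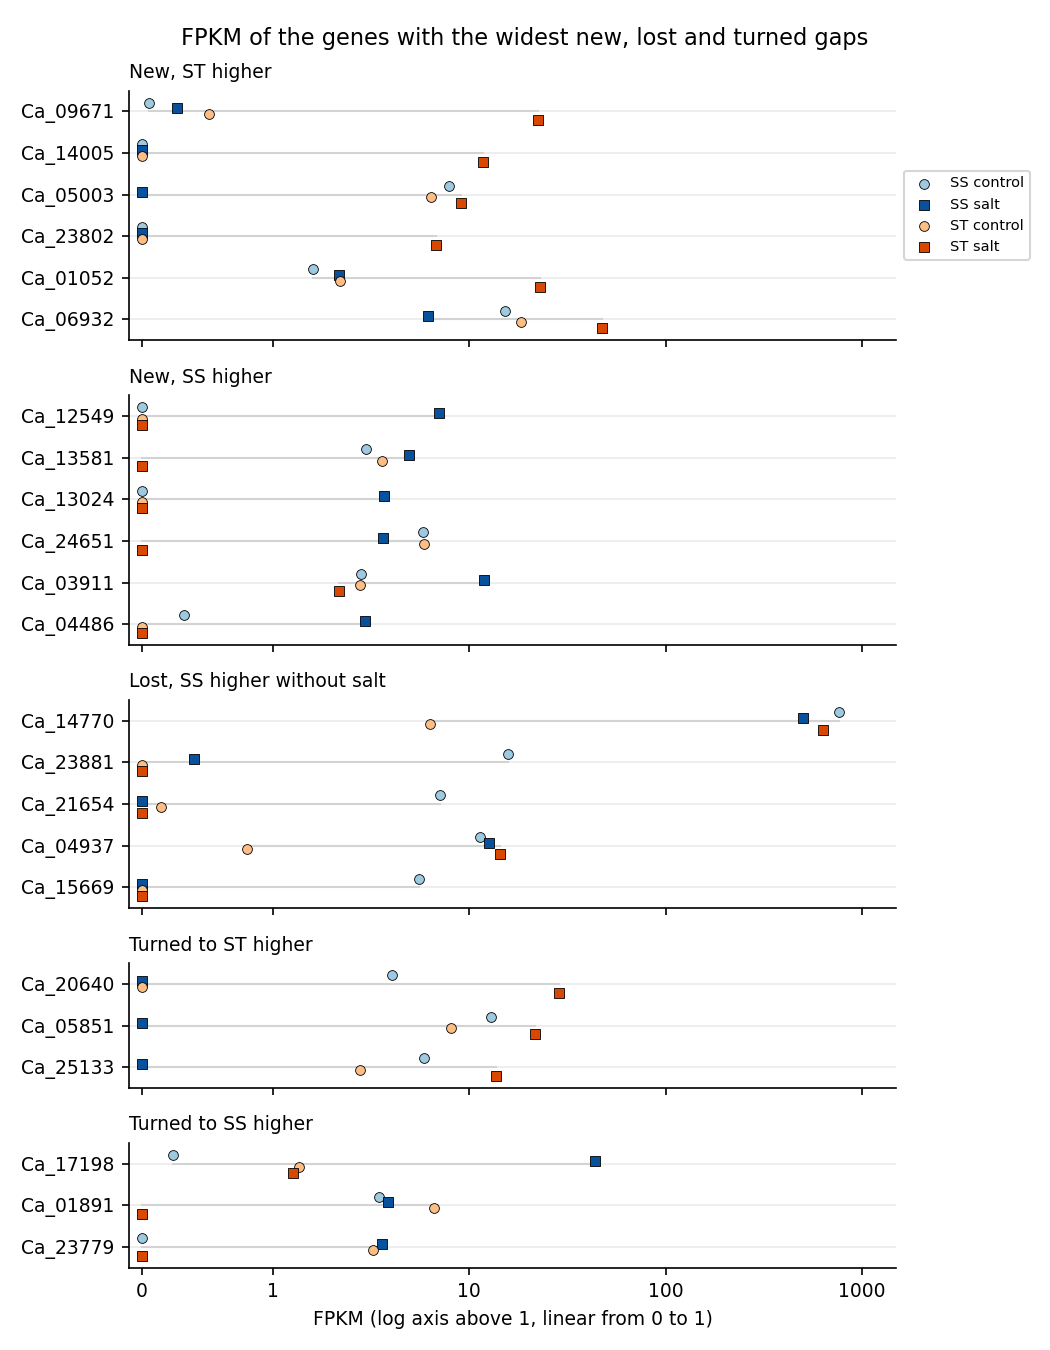
FPKM of the genes with the widest new gaps in each direction, the widest lost gaps with SS higher in the controls, and the widest turned gaps, on an axis that is linear from 0 to 1 and logarithmic above. Each gene has 4 points, circles for control and squares for salt, SS in blue and ST in orange, and points are offset vertically so that values listed at 0 stay visible. Under salt the ST value alone stands apart in Ca_01052 (23.0), and in Ca_14770 the ST control value (6.34) lies far below the other 3.

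Among lost gaps toward SS the widest was at Ca_14770. It had FPKM 769 in SS-C, 504 in SS-S, 6.34 in ST-C and 636 in ST-S, so that a 121-fold gap in the controls was 1.26-fold, in the other direction, under salt. The ST-C value alone stands apart. Ca_04937 had a similar pattern at a lower level, with 11.3, 12.6, 0.805 and 14.4. Ca_09727, picked once the values were known, had 14.7, 12.3, 1.97 and 12.1. In Ca_23881, Ca_21654 and Ca_15669 the SS value was at or near the ST value under salt, and both were low. These genes had 15.7, 7.13 and 5.58 in SS-C, and the only salt value above 0 was 0.396 in SS-S, at Ca_23881.

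The widest lost gaps toward ST were small in FPKM. Ca_11010 and Ca_12041 had FPKM 4.57 and 3.72 in ST-C and were listed at 0 in the other 3 columns. Ca_09290, Ca_24400 and Ca_24125 were listed at 0 in SS-C, had 4.38, 3.85 and 3.76 in ST-C, and came to 1.24, 1.88 and 2.76 in ST-S. Their SS-S values were 0.876, 1.77 and 1.97. Cases with more FPKM, also picked once the values were known, were Ca_25023 and Ca_13416. Ca_25023 had 133 in SS-C, 121 in SS-S, 438 in ST-C and 137 in ST-S, and Ca_13416 had 20.6, 25.2, 54.5 and 19.4. In both, the ST control stood alone above the other columns.

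Turned gaps numbered 143 toward ST and 105 toward SS under salt. Both genotypes had moved by at least 1.5-fold, in opposite directions, at 83 of the former and 51 of the latter. The widest toward ST were Ca_20640, Ca_05851 and Ca_25133, all listed at 0 in SS-S. Ca_20640 had 4.05 in SS-C, a listed 0 in ST-C and 28.7 in ST-S. Ca_05851 had 13.0, 8.12 and 21.6 in SS-C, ST-C and ST-S, and Ca_25133 had 5.87, 2.77 and 13.6. Toward SS, Ca_17198 had 0.237 in SS-C, 43.9 in SS-S, 1.36 in ST-C and 1.26 in ST-S. The SS-S value alone stands apart there. Ca_01891 had 3.46, 3.85, 6.64 and a listed 0, and Ca_23779 had a listed 0, 3.58, 3.22 and a listed 0.

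Kept gaps were of several kinds. In Ca_13027 the genotypes differed by much the same amount, with SS higher by 34.3-fold in the controls and 38.1-fold under salt. In Ca_10545 ST was higher by 9.94-fold in the controls and 14.2-fold under salt. Ca_10545 had FPKM 11.8 in SS-C, 8.56 in SS-S, 117 in ST-C and 122 in ST-S, and Ca_13027 had 19.3, 18.5, 0.564 and 0.485. In others the gap was much wider under salt than in the controls. Ca_21085 had 37.3, 2.81, 69.8 and 54.5, so that the ratio went from 1.87 to 19.4 with the lower SS value. Ca_04504 had 16.8, 14.1, 58.5 and 206, and its ratio went from 3.47 to 14.6 with the higher ST value. Ca_06787 had 35.8, 138, 22.6 and 10.4, with SS higher by 1.58-fold in the controls and 13.2-fold under salt. Ca_27838 and Ca_21847, at 72.7 and 18.9 in SS-S, were listed at 0 in ST-S and had 13.0 and 1.56 in ST-C. Ca_24767 was listed at 0 in both SS columns and had 9.996 and 12.3 in ST-C and ST-S.

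A value listed at 0 in the other genotype was found for 108 of the loci higher in ST and 80 of those higher in SS. The higher genotype had a median FPKM of 3.02 and 2.47 in these sets, and it reached FPKM 10 at 14 and 9 loci. Its highest values were 1582 in ST-S and 133 in SS-S, so not all of these loci were at low FPKM. At 33 and 23 loci the genotype at 0 was listed at 0 in both of its columns while the other had FPKM of at least 1 in both. At 22 and 18 loci the same genotype had FPKM of at least 1 without salt, so the listed 0 was confined to the salt column there. The widest kept gaps among loci without a gene name were also of this type in the salt columns. XLOC_026481 had 189 in ST-C and 338 in ST-S, XLOC_023262 had 5.35 and 60.5, and both were listed at 0 in SS. XLOC_008784 had 127 in SS-C and 133 in SS-S and was listed at 0 in ST. XLOC_029261 had 112, 80.7 and 10.2 in SS-C, SS-S and ST-C and was listed at 0 in ST-S.

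Loci without a gene name had gaps more often than named loci. Of 2770 such loci, 18.4% were higher in ST and 15.7% higher in SS under salt, against 9.99% and 5.25% of the 16891 loci with a single gene name. Their FPKM was lower, with a median of 9.08 in the higher column against 19.0. Among loci with FPKM of 10 or more the shares were 14.1% and 11.1% without a name and 7.39% and 3.58% with a single name, so the order held in this range too. The 553 loci that carry several gene names had the fewest gaps, 5.42% and 2.35%.

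The 17 genes that the study names by identifier cover 18 loci, since Ca_20130 is carried by 2 loci, and Ca_18464 shares its locus with Ca_18458. They were chosen by the study on these samples for their change under salt, so their counts are no independent evidence. Under salt 7 of the 18 loci were higher in ST (background 11.0%) and 4 were higher in SS (background 6.59%). The median log2 ratio was 0.27 under salt and -0.38 in the controls, against 0.05 and -0.01 over all loci. By class, 5 were new gaps, all with ST higher, 4 were kept, all with SS higher, 2 were turned and 3 were lost.

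The new gap with the widest ratio in this list was at Ca_09442, a homolog of the Arabidopsis transcription factor WRKY33, which acts in responses to pathogens and to salt. It had FPKM 52.4 in SS-C, 21.4 in SS-S, 62.6 in ST-C and 80.1 in ST-S. The controls were even at 1.19-fold, and under salt ST was 3.74-fold higher, with the SS column lower and the ST column higher than in the controls. Ca_12433, a homolog of the nuclease gene CAN2, had 27.8, 18.1, 25.7 and 28.9, a ratio of 1.60 under salt. Ca_12185, Ca_25894 and Ca_13125 have no role stated, and their ratios under salt were 2.95, 3.19 and 1.63. In Ca_12185 the values were 15.8, 8.83, 20.6 and 26.0, with SS lower under salt. In Ca_25894 they were 2.56, 1.86, 3.39 and 5.91, and in Ca_13125 they were 3.44, 3.14, 2.58 and 5.11, with ST higher under salt in both.

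Turned gaps were found at a transporter gene and at a membrane protein gene. Ca_02410 is a homolog of a MATE efflux transporter, a family that exports organic molecules such as citrate and toxic compounds. It had FPKM 7.34 in SS-C, 3.47 in SS-S, 3.95 in ST-C and 7.43 in ST-S. Each genotype under salt was thus near the other genotype's control. Ca_13970, a homolog of an Arabidopsis transmembrane protein tied to oxidative and osmotic stress, had 286, 169, 141 and 286, which is the same exchange at a higher level.

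The kept gaps of the list were all toward SS. Ca_25099 is a homolog of FRD3, which in Arabidopsis releases citrate into the xylem and so keeps iron mobile on its way to the shoot. It had 26.5 in SS-C, 8.89 in SS-S, 10.4 in ST-C and 1.39 in ST-S, lower under salt in both genotypes, and the gap went from 2.55-fold to 6.40-fold. Ca_10731, a homolog of a lipoxygenase (an enzyme that oxidises unsaturated fatty acids), had 30.1, 12.8, 11.6 and 6.73. The bHLH homolog Ca_07196, whose homologs the study ties to the regulation of iron transport in roots, had 23.4, 12.8, 14.8 and 7.60. Ca_09586 resembles the gene of inositol phosphate synthase (MIPS), which makes the precursor of myo-inositol. It had 8.94, 16.6, 5.86 and 10.3, was higher under salt in both genotypes, and had SS 1.61-fold above ST. In these 3 genes both genotypes moved the same way under salt and the gap was between 1.5-fold and 2-fold.

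The lost gaps of the list were Ca_02137 and both loci of Ca_20130. Ca_02137, a homolog of a patatin-related phospholipase A that acts in lateral root development, had 11.2 in SS-C, 12.3 in SS-S, 35.7 in ST-C and 15.3 in ST-S. A 3.20-fold gap toward ST in the controls was 1.25-fold under salt. At Ca_20130 a control gap toward SS of 1.74-fold and 1.59-fold narrowed to 1.18-fold and 1.47-fold, and the latter again passed 1.5-fold under the other 2 scalings. The remaining genes had no gap in either condition. They were Ca_12085 (the phosphate transporter PHT1;5), with FPKM 143 in SS-S and 185 in ST-S, Ca_22105 (a homolog of the leucine-rich repeat protein PIRL6), with 86.4 and 101, the bHLH homolog Ca_20616, with 4.30 and 3.40, and the locus of Ca_18464, with 155 and 140.

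**Figure D4:**
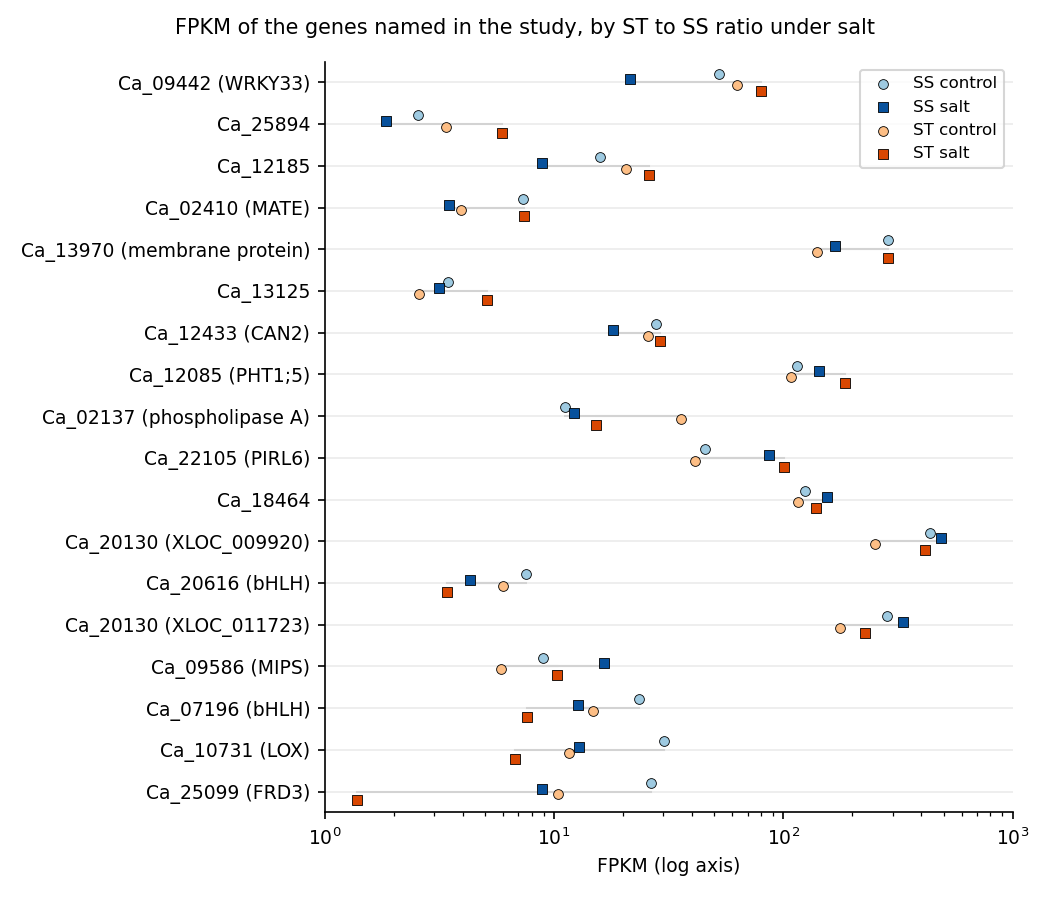
FPKM of the 17 genes named in the study, at 18 loci, in order of the ST to SS ratio under salt, on a log axis. Circles are controls and squares salt, SS in blue and ST in orange, with points offset vertically within a row. The squares are widest apart at Ca_25099 (FRD3, 8.89 in SS-S and 1.39 in ST-S) and at Ca_09442 (WRKY33, 21.4 and 80.1).

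The loci that the study lists as both changed by salt and near a differentially methylated region (DMR) were chosen on columns that enter this comparison too, so their share of gaps is a description only. Of 84 such loci in the SS genotype, 79 passed the FPKM minimum, 22 (27.8%) with ST higher and 18 (22.8%) with SS higher under salt, beside 11.0% and 6.59% of all loci. Of 111 in the ST genotype, 105 passed, 43 (41.0%) with ST higher and 23 (21.9%) with SS higher. The median log2 ratio of ST to SS under salt was 0.01 in the first list and 0.27 in the second, and 0.05 over all loci. In the controls it was -0.33, -0.12 and -0.01.

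Neighbouring loci sometimes shared a gap. Locus numbers follow the chromosome and strand, as checked against the positions of the DMRs the study assigns to loci. Among the loci past the FPKM minimum in this order, with the others skipped, 23 runs of at least 4 successive loci all had a gap of the same direction under salt, 15 toward ST and 8 toward SS, and the longest runs held 5 loci. These 23 runs took in 98 of the 3562 loci with a gap. Most gaps stood alone in this order, 1567 toward ST and 1011 toward SS. In 6 of the 23 runs every gap was kept. A gene name at every locus was found in 2 of them, both also kept. The first held Ca_10404, Ca_10405, Ca_10407, Ca_10408 and Ca_10409, all with SS higher under salt by 1.86-fold to 2.40-fold. Ca_10409 was the most abundant, with FPKM 645 in SS-C, 592 in SS-S, 277 in ST-C and 247 in ST-S, and Ca_10407 had 91.9, 95.0, 26.6 and 43.6. The second held Ca_10006, Ca_10004, Ca_10002 and Ca_10000, with ST higher by 1.59-fold to 3.47-fold. Ca_10000 had 6.11, 5.57, 15.8 and 19.3. Whether members of a run are copies of each other that share reads was not tested.

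**Figure D5:**
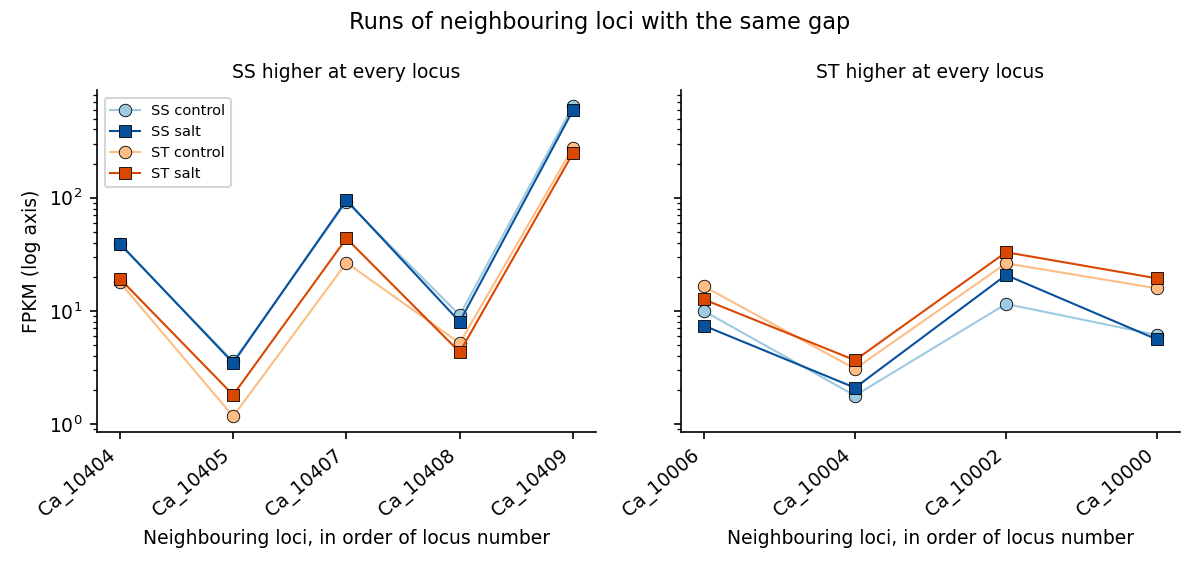
FPKM on a log axis of the loci in the 2 runs of at least 4 neighbouring loci where each locus has a gene name and a kept gap, in order of locus number. Circles are controls and squares salt, and lines join the loci of a group. In the left run both SS lines lie above both ST lines at every locus (Ca_10409, 592 in SS-S and 247 in ST-S), and in the right run both ST lines lie above both SS lines of the same condition.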

How the data were processed

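Reads were single-end and 49 bp long. After a quality filter (Phred 20) the authors aligned them to version 1.0 of the Kabuli genome using TopHat2 2.1.1, and FPKM came from Cufflinks and Cuffdiff, both 2.2.1 in the submitters' processing notes (the methods text gives another Cuffdiff version). The deposited values are FPKM, 1 column per group with both libraries combined by the authors, and the scaling between libraries is not given in the sources used here. Ratios were taken as plain FPKM ratios without a pseudocount. The tests that single libraries would allow could not be run, and no p-value is printed. Tables were handled in pandas 2.3.3 and numpy 2.4.6 under Python 3.11.15, and figures were drawn with matplotlib 3.10.9. The code that classes gaps was run on simulated data with planted gaps well past the cut and a small error. That run checks the code only and gives no error rate for the classes reported here. Genes named are those the study names by identifier, the widest new, kept, turned and lost gaps of each direction on the log2(FPKM + 1) scale among loci with a single gene name, the widest new and kept gaps without a gene name, and the loci with the largest FPKM differences. Other genes are said to be picked once the values were known. Members and lists were chosen with earlier results of these data known. Alternatives were pseudocounts of 0.1 and 1, no filter or a minimum FPKM of 5, a 2-fold gap, 2 scalings, and loci with a single gene name. Gene roles come from the study's text and general knowledge, and DMR positions served only to check the order of locus numbers. The reference table shares no identifier with the deposited table, so no coordinates or sequences are printed.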

Additional observations from a re-analysis of the deposited data

Results flagged for a closer look

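The turned gaps were looked at again because the genotypes differed in opposite directions with and without salt. There were 143 loci with ST lower without salt and higher under salt and 105 with the reverse. The difference between the 2 conditions was not tested, since each group is a single pooled column. In the higher salt column, FPKM was 28.7 in Ca_20640, 21.6 in Ca_05851, 13.6 in Ca_25133, 43.9 in Ca_17198, 3.85 in Ca_01891, 3.58 in Ca_23779, 7.43 in Ca_02410 and 286 in Ca_13970.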

How the results depend on the processing

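No paired analysis was possible because the libraries of a group are combined in 1 column, and leaving out a library was not possible for the same reason. Without the FPKM filter there were 5635 gaps under salt, 3414 with ST higher and 2221 with SS higher, with 2138 kept and 758 turned. With the minimum raised to FPKM 5 there were 2233, 1420 with ST higher and 813 with SS higher, with 998 lost, 871 kept and 90 turned. At 2-fold there were 1692, 1127 with ST higher and 565 with SS higher, with 1050 new, 816 lost, 570 kept and 72 turned. A pseudocount of 1 left 139 turned gaps. Loci with exactly 1 gene name gave 886 gaps with SS higher and 142 turned gaps. These settings change how many loci are open or how wide a gap must be. New gaps with SS higher numbered 976 without the filter, 405 at FPKM 5 and 287 at 2-fold, and new gaps with ST higher numbered 763 at 2-fold. At FPKM 200 or more the 2-fold setting left 94 gaps with ST higher and 13 with SS higher. The remaining totals (salt gaps in all and by direction, and each class in all) stayed within 1.5 times under the 8 alternatives, and ST was the higher genotype in 57.3% to 66.6% of the salt gaps under each. No salt gap changed its direction under any of them. Of the 79 named loci, Ca_13125 lost its gap with a pseudocount of 1, and 1 locus of Ca_20130 gained a gap under both scalings. Depth is not given in the sources used here, so no precision is given for low FPKM.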
